A study of Rattus norvegicus with 30 samples.

Results

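The genes described are the amino acid transporter families of the rat liver, measured on arrays 24 hours after part of the liver had been removed. They were taken by name, as every gene symbol of the solute carrier families SLC1, SLC3, SLC6, SLC7, SLC36, SLC38 and SLC43 that a single-gene probe set of the array carried, with 2 genes left out. This gave 59 genes, each with 1 probe set, of 18166 genes tested. Of these, 56 were sorted here as transporters or their partner chains, and the other 3 (Slc7a6os, Slc7a3l1 and Slc6a21) were not given a role. Slc7a6os is a gene next to Slc7a6 on the opposite strand and is not a carrier.

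The 30 animals were wild-type Wistar rats with 1 array of liver RNA each. Resection took 30%, 70% or 90% of the liver in 6 rats each (groups PH30, PH70 and PH90); 6 more rats were sham-operated, and another 6 were not operated on and are called unoperated. Rats were assigned to the operations at random, and a small piece of frozen liver was used for each. The labels used here state neither age nor sex. The design asks how liver expression depends on the extent of resection, with the sham operation as the control for surgery.

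All values are log2 values that were centred gene by gene, so that each probe set has a median of 0 over the 30 arrays. A value of 1 is therefore a level 2-fold above that gene's own median, and the level of 1 gene cannot be set against that of another. For the same reason the labelled tissue could not be checked against the level of liver markers. In a piece of whole liver, fewer cells of a type and less RNA per cell cannot be told apart.

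Amino acids cross cell membranes mainly through carriers, and the liver uses them to take up alanine, glutamine and arginine for glucose, urea and protein synthesis. Some carriers concentrate amino acids with sodium (SLC1, SLC6 and SLC38) or protons (SLC36), some exchange 1 amino acid for another (many SLC7 chains, which need an SLC3 heavy chain to reach the membrane), and some let them pass down their gradient (SLC43). Several carriers of growing or amino acid-starved cells are known targets of the transcription factor ATF4, and carriers at the lysosome report amino acid supply to the growth kinase mTORC1.

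Before the results, 2 rats have to be named. Over all genes, PH30 rat 95 and PH70 rat 139 did not resemble their groups: their mean correlations with the other rats of the group were -0.102 and -0.0956, against 0.158 to 0.23 for the other PH30 rats with their group and 0.458 to 0.512 for the other PH70 rats. Both were kept, and values without them are given where they matter. Arrays of the PH90 rats also spread more over genes (SD 0.363 to 0.554) than those of all other rats (0.192 to 0.305). The unoperated rats carry the numbers 145 to 152 and all others 37 to 143, so the effect of the operation and any effect of numbering order cannot be told apart in that comparison.

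After the largest resection 11 of the 59 genes rose, led by the heavy chain Slc3a2 (4.36-fold), the neutral exchanger Slc1a4 (2.03-fold) and the cationic carrier Slc7a2 (2.02-fold). The GABA and taurine carrier Slc6a13 fell 7.26-fold and the SLC43 carriers Slc43a3 and Slc43a1 fell 3.82-fold and 1.60-fold. In PH70 Slc3a2 was higher and Slc6a13 lower than in sham, while Slc7a2 was lower. The liver's neutral carrier Slc38a4 and the glycine carrier Slc6a9 fell in PH30 and PH70 and were not called in PH90. A gene was called where its adjusted p was below 0.05 in limma, with Benjamini-Hochberg adjustment over all 18166 genes.

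Counted over the families, 15 of 59 genes were called in PH90 against sham (25.4%), 11 higher and 4 lower, beside 34.6% of the whole array's genes (19.9% higher, 14.7% lower). In PH70 against sham 7 genes were called (11.9%), 2 higher and 5 lower, beside 18.6% of all genes, 10.5% higher and 8.15% lower. In PH30 against sham 3 were called (5.08%), all lower, beside 5.53% of all genes, 2.2% higher and 3.34% lower. Sham and unoperated livers differed in 1 gene, which was lower in sham (1.69%), beside 0.738% of all genes, 0.308% higher and 0.429% lower. Between resections, 17 genes were called in PH90 against PH70 (28.8%), 14 higher and 3 lower, beside 24.5% of all genes, 14.1% higher and 10.4% lower. In PH90 against PH30 18 were called (30.5%), 13 higher and 5 lower, beside 31.5% of all genes, 18.4% higher and 13.1% lower. In PH70 against PH30 1 was called higher (1.69%), beside 2.27% of all genes, 1.76% higher and 0.512% lower. Against the unoperated rats 4 genes were called in PH30, 12 in PH70 and 17 in PH90, beside 9.85%, 18.5% and 33.8% of all genes. Over the 5 groups at once (limma F test) 24 of 59 genes were called, beside 42.7% of all genes. The families as a whole were thus called at about the rate of all genes or below it in the comparisons with sham, and the results concern single genes. The median difference over the 59 genes in PH90 against sham was 0.01, beside -0.00 over all genes. When the arrays were quantile normalized, which makes their spread equal, 7 of 12 calls in PH90 against sham were higher. In PH30 against sham 1 of 7 was higher. The share of all genes called after this step was not counted, so these counts cannot be read as particular to the transporters. This step tends to shrink differences of the PH90 arrays, whose spread was the widest, whatever made it wide.

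**Figure D1:**
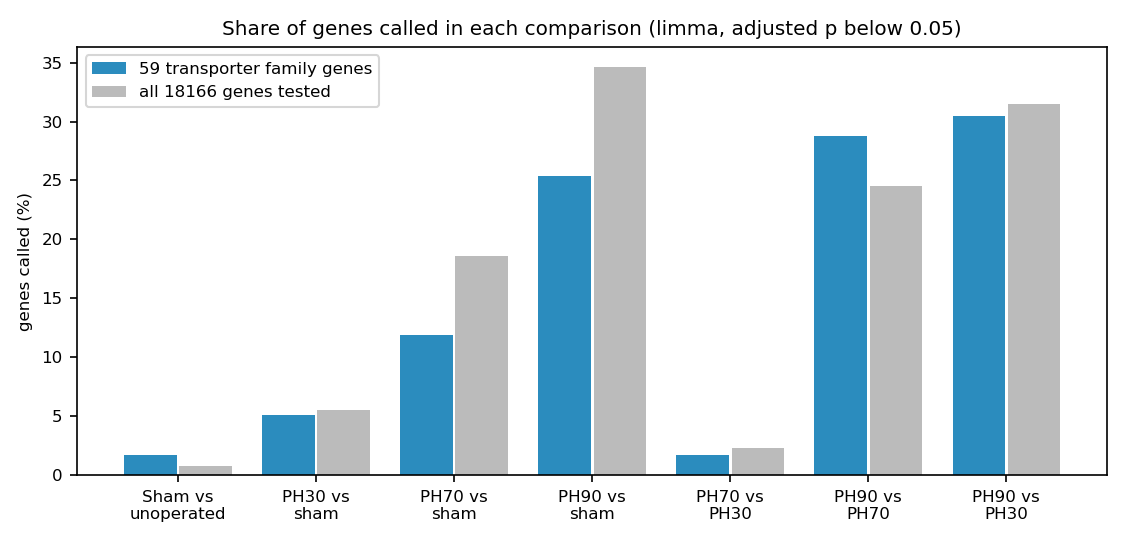
Bars give the percent of genes called (limma, adjusted p below 0.05) among the 59 transporter family genes (blue) and all 18166 genes tested (grey) in 7 comparisons of 6 rats with 6. The share rose to 25.4% in PH90 against sham, below the 34.6% of all genes.

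**Figure D2:**
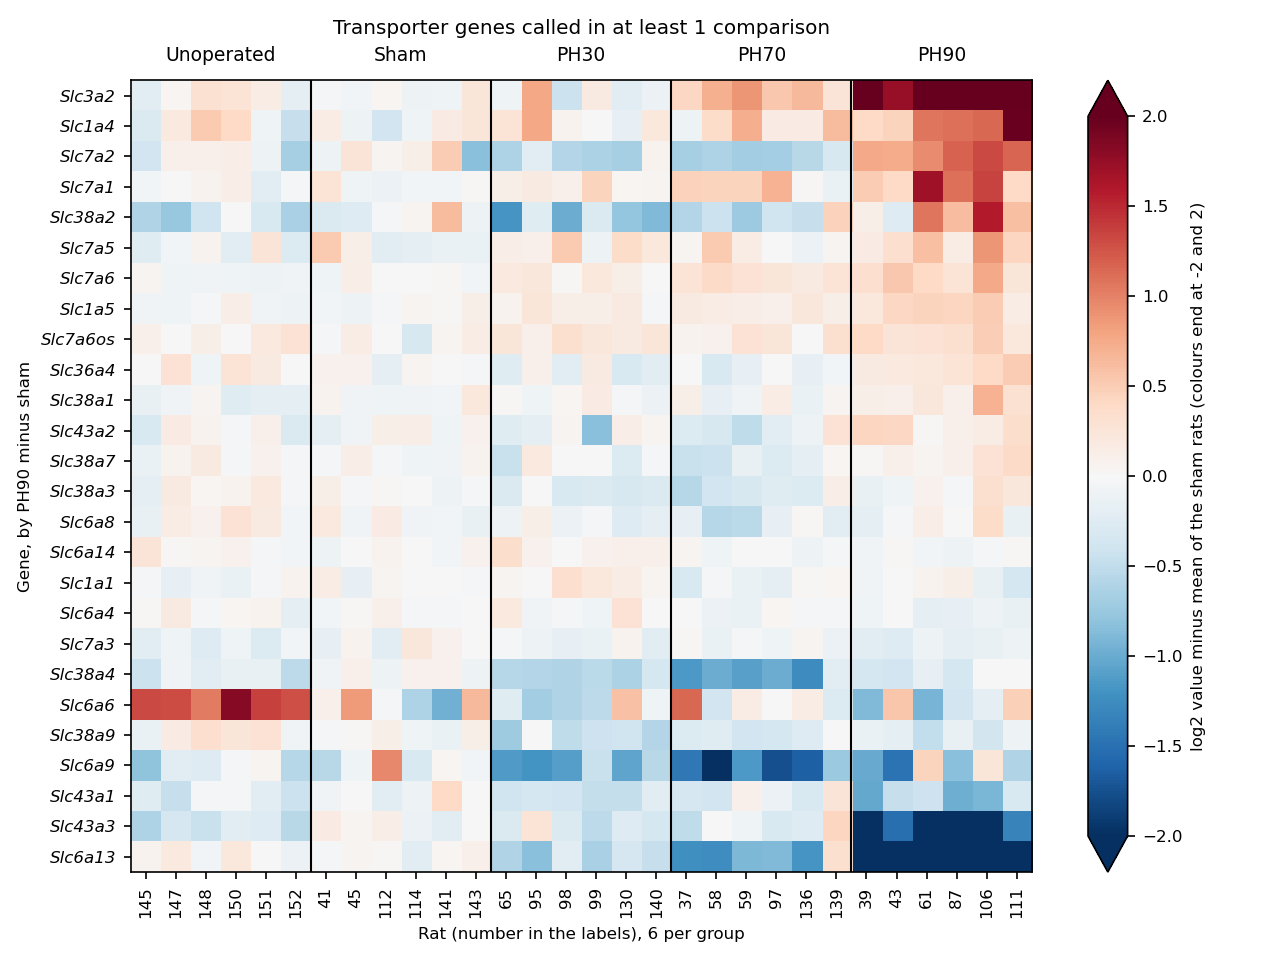
Each column is a rat and each row 1 of the 26 genes called in at least 1 of the 7 comparisons; colour is the log2 value minus the mean of the 6 sham rats, with colours ending at -2 and 2. The PH90 columns hold the deepest colours at both ends, and PH70 rat 139 differs from its neighbours in Slc38a4, Slc6a13 and Slc38a2.

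The heavy chain Slc3a2 (CD98), which escorts the SLC7 exchangers to the cell surface, rose with the larger resections. Its values had a lowest, median and highest of -0.45, -0.15 and 0.06 in unoperated rats and -0.35, -0.29 and -0.01 in sham rats. They were -0.68, -0.35 and 0.53 in PH30, 0.01, 0.35 and 0.64 in PH70, and 1.49, 1.84 and 2.16 in PH90. Every PH70 and PH90 rat lay above every sham rat, and the PH90 rats lay above all others; the highest PH30 value was that of rat 95. Against sham, Slc3a2 was 1.49-fold higher in PH70 (log2 difference 0.58, SE 0.15, adjusted p = 0.00492) and 4.36-fold higher in PH90 (2.12, SE 0.15, adjusted p = 1.79e-12), while PH30 did not pass the test. It was the only member called between PH70 and PH30 (0.56, SE 0.15, adjusted p = 0.0416). That call rested on the full set of rats: it was lost in 10 of the 30 fits that leave out 1 rat each, and the difference was 0.77 without rats 95 and 139. The other heavy chain, Slc3a1, which works in kidney and gut with Slc7a9, was called in no comparison.

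Of the 9 genes sorted here as SLC7 light chains, Slc7a5 and Slc7a6 rose in PH90. Slc7a6, the second y+L exchanger, which trades cationic for neutral amino acids, had a lowest, median and highest of -0.23, -0.16 and -0.02 in sham, 0.02, 0.12 and 0.23 in PH70, and 0.09, 0.22 and 0.61 in PH90. Neither resection group overlapped with sham. It was 1.21-fold higher in PH70 (0.27, SE 0.07, adjusted p = 0.00294) and 1.34-fold higher in PH90 (0.42, SE 0.07, adjusted p = 4.21e-06). Slc7a5 (LAT1), the leucine exchanger of dividing and activated cells, was 1.34-fold higher in PH90 (0.43, SE 0.14, adjusted p = 0.0131), with PH90 values from 0.04 to 0.78 and sham values from -0.32 to 0.42. Those groups overlapped, through sham rat 41, and the call was lost without PH90 rat 106 (0.34, adjusted p = 0.0508) and under quantile normalization (0.30, adjusted p = 0.134). Among the 7 other light chains none was called; the largest difference was that of Slc7a7, where PH70 rat 139 stood at 1.31 and the other PH70 rats near its median of 0.03. Slc7a6os, the opposite-strand neighbour of Slc7a6, was 1.25-fold higher in PH90 (0.33, SE 0.07, adjusted p = 0.000505); the files do not show whether the probes of these neighbours keep the strands apart.

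The cationic carriers for arginine and lysine gave the clearest case of opposite change. Slc7a2 (CAT-2), whose low-affinity form is the liver's own arginine carrier, had a lowest, median and highest of -0.73, 0.19 and 0.61 in sham, -0.56, -0.49 and 0.18 in PH30, -0.58, -0.54 and -0.22 in PH70, and 0.85, 1.16 and 1.42 in PH90. All PH90 rats lay above all rats of the other groups, and the PH70 rats lay below all sham rats but rat 143. In PH70 Slc7a2 was 1.5-fold lower than in sham (-0.59, SE 0.17, adjusted p = 0.0129), and in PH90 it was 2.02-fold higher (1.02, SE 0.17, adjusted p = 1.35e-05). PH90 exceeded PH70 3.04-fold (1.60, SE 0.17, adjusted p = 2.33e-08). Against unoperated rats the PH70 difference was -0.45 and did not pass (adjusted p = 0.0639). Quantile normalization reduced the PH90 difference from sham to 0.66 (adjusted p = 0.027).

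Slc7a1 (CAT-1), the high-affinity arginine carrier of most other tissues, rose in PH90 only among the 3 comparisons with sham. Its lowest, median and highest values were -0.22, -0.16 and 0.17 in sham, -0.07, 0.00 and 0.33 in PH30, -0.24, 0.34 and 0.58 in PH70, and 0.28, 0.69 and 1.58 in PH90. The PH90 rats spread widely and did not overlap with sham, and rat 139 was the lowest of the PH70 rats. The PH90 difference from sham was 1.88-fold (0.91, SE 0.17, adjusted p = 4.89e-05), and PH90 exceeded PH70 1.5-fold (0.58, SE 0.17, adjusted p = 0.00852), a call lost under quantile normalization (0.28, adjusted p = 0.22). Slc7a3 (CAT-3) was 1.12-fold lower in PH90 than in sham (-0.17, SE 0.06, adjusted p = 0.0434) and did not differ from unoperated rats (-0.00, adjusted p = 0.971); leaving out any 1 of 8 rats ended the call.

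In the SLC1 family the neutral exchangers rose and the glutamate carriers were not called against sham. Slc1a4 (ASCT1), a carrier of serine, alanine and cysteine, had a lowest, median and highest of -0.57, -0.16 and 0.05 in sham, -0.37, -0.06 and 0.58 in PH30, -0.30, 0.07 and 0.53 in PH70, and 0.19, 0.89 and 1.79 in PH90. The lowest PH90 rat lay above the highest sham rat, and the highest PH30 value was again that of rat 95. The PH90 rise over sham was 2.03-fold (1.02, SE 0.21, adjusted p = 0.000224), and over PH70 1.62-fold (0.70, SE 0.21, adjusted p = 0.0132; 0.40 and adjusted p = 0.29 under quantile normalization, 0.50 and adjusted p = 0.0508 without PH90 rat 111). Slc1a5 (ASCT2), the glutamine exchanger of proliferating cells, had sham values from -0.21 to -0.00 and PH90 values from 0.03 to 0.39, with no overlap. It was 1.28-fold higher in PH90 (0.36, SE 0.06, adjusted p = 7.91e-06). Slc1a1 (EAAC1), a glutamate carrier, was called only in PH90 against PH30 (-0.20, SE 0.07, adjusted p = 0.0364), and the call was lost without any 1 of 6 rats (PH30 rats 98, 99 and 130, PH90 rats 39, 106 and 111; adjusted p up to 0.13).

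Several of these carriers are known ATF4 targets. Windows of 300 bases, 250 before the start site and 50 after it, were therefore read for the core of the C/EBP-ATF response element. The core, TGATGNAA, was sought on both strands (TTNCATCA in reverse). RefSeq windows (build GRCr8) were at hand for 44 of the 59 genes, which have 48 windows in all. The core was found in 3 of the 48 member windows (6.25%) and in 1332 of 33469 windows of all genes (3.98%). The 3 genes were Slc1a4, Slc38a1 and Slc7a1, and they are shown as the windows, of these 48, that hold the core. All 3 were called higher in PH90 against sham, beside 11 of the 59 genes and 19.9% of all genes. Of the 8 other genes called higher there, Slc3a2, Slc7a5, Slc7a6, Slc7a6os, Slc38a2 and Slc36a4 had windows without the core, and Slc7a2 and Slc1a5 had no window. Each printed sequence holds the 250 bases before the start site and runs 5′ to 3′ toward the gene, with the matched letters in capitals.
Slc1a4: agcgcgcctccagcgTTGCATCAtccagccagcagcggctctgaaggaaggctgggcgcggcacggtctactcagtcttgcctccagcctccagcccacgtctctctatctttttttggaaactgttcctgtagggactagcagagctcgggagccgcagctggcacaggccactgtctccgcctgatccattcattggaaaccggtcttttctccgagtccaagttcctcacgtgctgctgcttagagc
Slc38a1: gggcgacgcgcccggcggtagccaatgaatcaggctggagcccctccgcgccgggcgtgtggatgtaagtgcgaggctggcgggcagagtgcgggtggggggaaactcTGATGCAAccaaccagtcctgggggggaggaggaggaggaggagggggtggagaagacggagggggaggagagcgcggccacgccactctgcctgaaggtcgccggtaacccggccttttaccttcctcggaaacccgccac
Slc7a1: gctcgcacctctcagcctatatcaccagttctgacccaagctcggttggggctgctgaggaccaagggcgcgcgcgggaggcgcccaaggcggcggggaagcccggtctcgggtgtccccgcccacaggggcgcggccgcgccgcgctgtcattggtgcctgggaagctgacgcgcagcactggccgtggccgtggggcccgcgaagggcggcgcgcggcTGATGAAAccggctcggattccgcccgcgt
The printed bases lie at chr14:98761563-98761812 on the minus strand for Slc1a4 and chr7:129681402-129681651 on the minus strand for Slc38a1. For Slc7a1 they lie at chr12:11664238-11664487 on the plus strand. The match begins at base -235 in Slc1a4 (reverse strand), -142 in Slc38a1 and -30 in Slc7a1, counted from the start site. A match describes letters in these windows and is not a measured binding site, and no match says only that these letters are not in the window; no binding was measured here.

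The sodium-coupled SLC38 family split by gene and by resection. Slc38a2 (SNAT2), the alanine and glutamine carrier that amino acid shortage and hormones induce, had a lowest, median and highest of -0.46, -0.21 and 0.28 in unoperated, -0.00, 0.23 and 0.92 in sham, -0.88, -0.53 and 0.05 in PH30, -0.44, -0.15 and 0.76 in PH70, and 0.03, 0.90 and 1.88 in PH90. The groups overlapped, with sham rat 141 high, PH70 rat 139 high and PH90 rat 43 low. In PH90 it was 1.54-fold above sham (0.62, SE 0.24, adjusted p = 0.04), with 5 of 6 rats above the sham mean. It was 1.97-fold above PH70 (0.98, SE 0.24, adjusted p = 0.00206) and 2.55-fold above PH30 (1.35, adjusted p = 3.49e-05). The difference from sham was lost in 9 of the 30 fits that leave out 1 rat and shrank to 0.18 under quantile normalization (adjusted p = 0.673); against unoperated rats it was 1.08 (adjusted p = 0.000473). The PH30 value against sham was -0.73 and did not pass with all rats.

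Slc38a4 (SNAT4), a carrier found mainly in liver, fell after the smaller resections, with its lowest values in PH70. Its lowest, median and highest values were 0.24, 0.35 and 0.45 in sham, -0.28, -0.23 and -0.00 in PH30, -0.90, -0.69 and 0.13 in PH70, and -0.03, 0.09 and 0.36 in PH90. No PH30 or PH70 rat reached the lowest sham rat, and the highest PH70 rat was 139, with the next at -0.64. Slc38a4 was 1.46-fold lower in PH30 (-0.55, SE 0.12, adjusted p = 0.00761) and 1.93-fold lower in PH70 (-0.95, SE 0.12, adjusted p = 4.57e-06), and was not called in PH90 against sham or in PH70 against PH30. PH90 exceeded PH70 1.67-fold (0.74, SE 0.12, adjusted p = 1.44e-05). Against unoperated rats the PH30 difference was -0.28 and did not pass (adjusted p = 0.126).

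Slc38a3 (SNAT3), the hepatocyte glutamine carrier, ran parallel at a smaller scale: sham values lay between -0.06 and 0.15, PH70 values between -0.53 and 0.17, and PH90 values between -0.10 and 0.35. The groups overlapped, again through PH70 rat 139 as the highest. It was 1.21-fold lower in PH70 than in sham (-0.28, SE 0.09, adjusted p = 0.0271) and 1.26-fold higher in PH90 than in PH70 (0.34, SE 0.09, adjusted p = 0.00501). The fall in PH70 no longer passed when PH70 rat 37 (adjusted p = 0.0958), 58 (0.0629) or 59 (0.0527) or sham rat 41 (0.063) was left out. Slc38a7, a lysosomal glutamine and asparagine carrier, was called in PH90 against PH70 (0.40, SE 0.09, adjusted p = 0.000926) and not against sham. Slc38a9, the lysosomal arginine carrier that signals to mTORC1, fell 1.35-fold in PH30 (-0.44, SE 0.10, adjusted p = 0.0093), with PH30 values from -0.58 to 0.14 and sham values from 0.01 to 0.25; rat 95 was the 1 PH30 rat in the sham range. Slc38a1 (SNAT1), a glutamine carrier, was 1.20-fold higher in PH90 than in sham (0.26, SE 0.08, adjusted p = 0.0155), where rat 106 stood at 0.70; without that rat the difference was 0.17 (adjusted p = 0.0629).

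**Figure D3:**
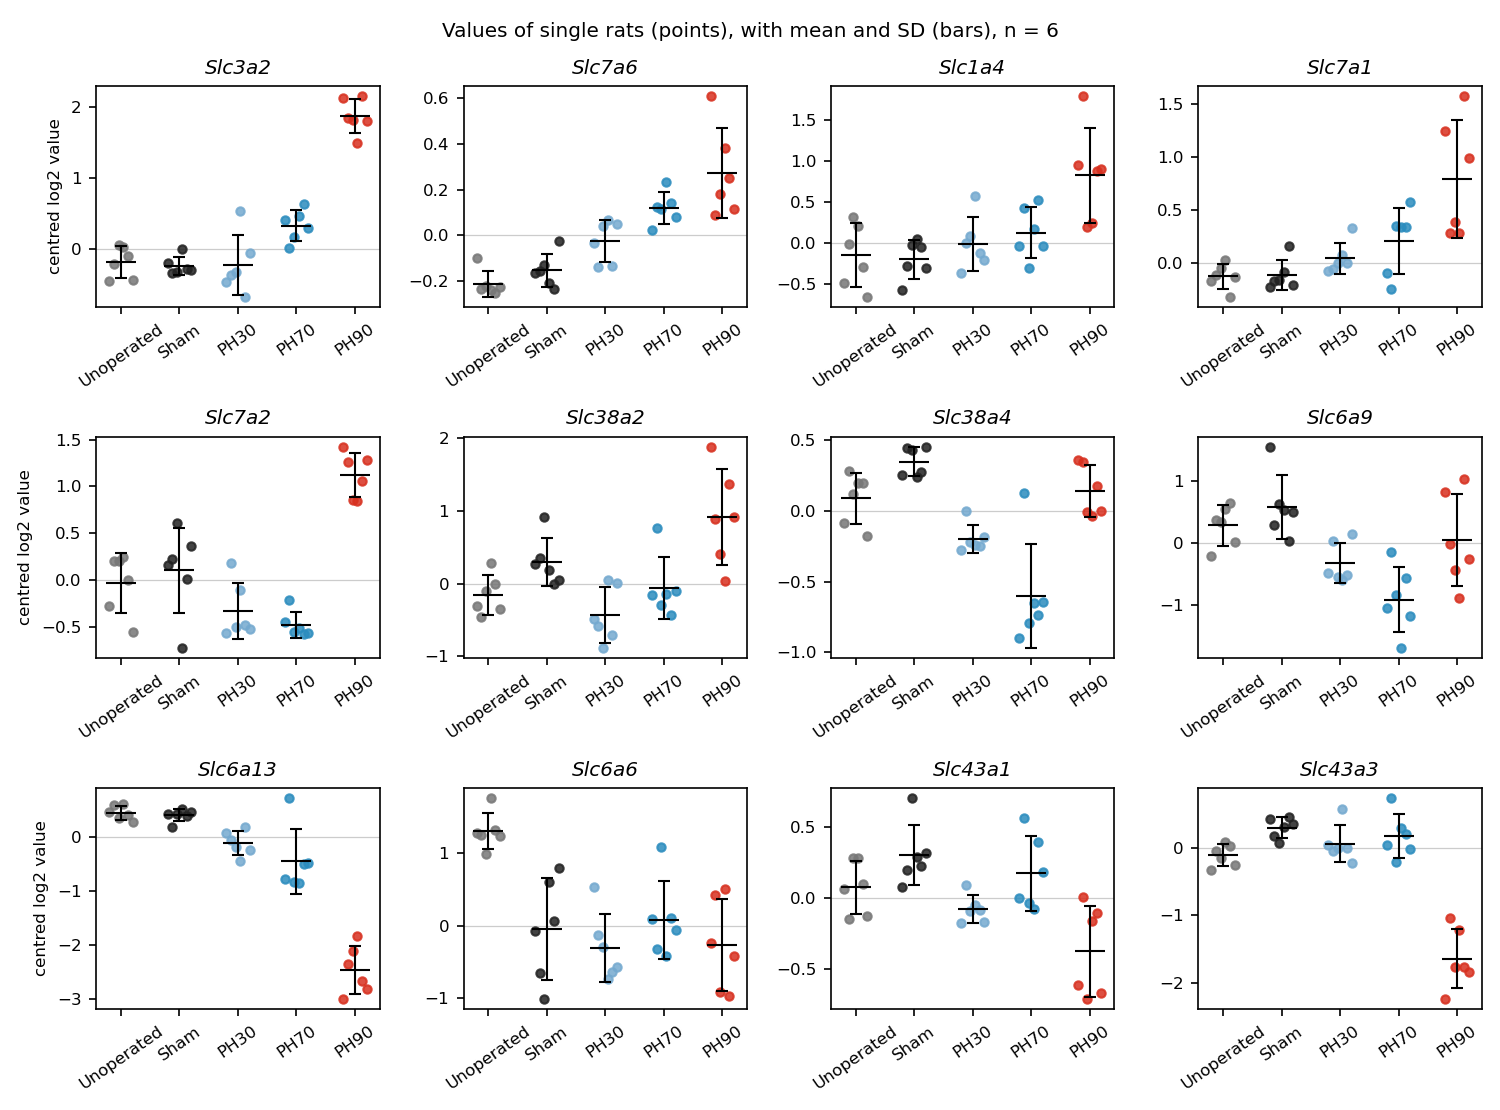
Points are centred log2 values of single rats in 12 genes, by group, with the mean and SD of 6 rats as bars; each panel has a scale of its own. Slc3a2, Slc7a2, Slc6a13 and Slc43a3 in PH90 stand clear of the 4 other groups, Slc6a6 stands high in unoperated rats, and the lone high PH70 point in Slc38a4, Slc6a13 and Slc38a2 is rat 139.

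Slc6a9 (GlyT1), a glycine carrier, fell after the smaller resections, with its lowest values in PH70. Its lowest, median and highest values were -0.21, 0.36 and 0.64 in unoperated, 0.03, 0.52 and 1.55 in sham, -0.60, -0.49 and 0.14 in PH30, -1.68, -0.94 and -0.15 in PH70, and -0.88, -0.13 and 1.04 in PH90. The PH70 rats lay below all sham rats, PH30 rats overlapped with sham, and sham rat 112 was far above the rest. The fall was 2.82-fold in PH70 (-1.50, SE 0.28, adjusted p = 0.000228) and 1.88-fold in PH30 (-0.91, SE 0.28, adjusted p = 0.048), and PH90 exceeded PH70 1.94-fold (0.96, SE 0.28, adjusted p = 0.01). In PH90 the difference from sham was -0.54 and was not called. Neither PH70 (-0.58) nor PH90 (0.37) was called against PH30. The PH30 call was lost in 19 of the 30 fits that leave out 1 rat, with the largest adjusted p of 0.116 without sham rat 112 (-0.72), and against unoperated rats it did not pass (-0.61, adjusted p = 0.171). Glycine is the precursor of heme, and developing red cells also carry this transporter. Of 7 red cell markers measured, 1 was lower in PH30, 3 in PH70 and 3 in PH90 against sham, and none was higher. Beside these, 3.34%, 8.15% and 14.7% of all genes were called lower. Against unoperated rats 1 marker was lower in PH30, 1 in PH70 and 2 in PH90. The mean of the 7 markers ran from 0.12 to 0.40 in sham and -0.06 to 0.25 in PH30. It ran from -0.25 to 0.25 in PH70 and -0.21 to 0.04 in PH90. The part of these markers in the Slc6a9 result was not tested. The 8 other amino acid carriers of the SLC6 family were not called against sham.

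Among the SLC6 carriers of taurine, creatine and GABA, Slc6a13 (GAT2), which takes up GABA and taurine into hepatocytes, gave the largest difference of all 59 genes. Its lowest, median and highest values were 0.28, 0.43 and 0.61 in unoperated, 0.19, 0.42 and 0.51 in sham, -0.44, -0.13 and 0.18 in PH30, -0.85, -0.64 and 0.72 in PH70, and -3.00, -2.51 and -1.83 in PH90. All PH90 rats lay below every other rat, and in PH70 5 of 6 rats lay below sham while rat 139 lay above it. Slc6a13 was 7.26-fold lower in PH90 (-2.86, SE 0.19, adjusted p = 1.33e-12) and 1.81-fold lower in PH70 (-0.85, SE 0.19, adjusted p = 0.00179). In PH30 it was not called with all rats, and without rats 95 and 139 it was (-0.45). PH90 was 4.02-fold below PH70 (-2.01, SE 0.19, adjusted p = 4.81e-09). Quantile normalization brought the PH90 difference to -1.66 against sham (adjusted p = 1.17e-07) and to -0.58 against PH70 (adjusted p = 0.0527), which ended the latter call.

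Slc6a6 (TauT), the taurine carrier, separated operated from unoperated rats and was the only member called between sham and unoperated. Its lowest, median and highest values were 0.99, 1.27 and 1.77 in unoperated, -1.01, -0.01 and 0.80 in sham, -0.74, -0.43 and 0.54 in PH30, -0.43, 0.02 and 1.10 in PH70, and -0.98, -0.33 and 0.51 in PH90. Every unoperated rat lay above every sham rat, and of the operated rats PH70 rat 37 alone reached the unoperated range. Sham was 2.56-fold below unoperated (-1.36, SE 0.30, adjusted p = 0.0192), PH30 3.07-fold (-1.62, adjusted p = 0.000686), PH70 2.34-fold (-1.23, adjusted p = 0.00325) and PH90 2.99-fold (-1.58, adjusted p = 6.75e-05); these share the unoperated rats. Against sham no resection was called. The sham call was lost without sham rat 141 (-1.16, adjusted p = 0.0585), sham rat 114 (-1.23, 0.0591) or unoperated rat 150 (-1.26, 0.0588). Since the unoperated rats have the highest numbers, operation and numbering order cannot be told apart here. Slc6a8, the creatine carrier, was called in PH90 against PH70 (0.29, SE 0.10, adjusted p = 0.031) and not against sham; the call was lost without PH70 rat 58 or 59 or PH90 rat 61 or 106 (adjusted p up to 0.112).

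Among 12 genes listed for making taurine, creatine and betaine, 10 were lower and 1 higher in PH90 against sham, where 34.6% of all genes were called. In PH70 5 were lower and in PH30 2, beside 8.15% and 3.34% of all genes called lower. Most of the 12 did not pass in these 2 groups. The median difference in PH90 was -1.35 beside -0.00 over all genes. Csad and Cdo1, which make taurine from cysteine, had log2 differences of -3.69 (adjusted p = 1.77e-14) and -2.98 (adjusted p = 1.53e-12) in PH90. Gamt, the last enzyme of creatine synthesis, fell by 2.55 (adjusted p = 9.32e-13), and Fmo1, which oxidises hypotaurine to taurine, fell by 4.22 (adjusted p = 4.91e-16). Ado, which also feeds the taurine pathway, was the 1 that rose (0.39, adjusted p = 0.00313).

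All 3 SLC43 carriers differed among the groups. Slc43a3, which carries purine bases and not amino acids, had a lowest, median and highest of -0.33, -0.10 and 0.08 in unoperated, 0.06, 0.32 and 0.45 in sham, -0.23, -0.00 and 0.57 in PH30, -0.21, 0.12 and 0.73 in PH70, and -2.23, -1.76 and -1.04 in PH90. The PH90 rats lay below all others, and the highest PH30 and PH70 rats were 95 and 139. The fall in PH90 was 3.82-fold (-1.93, SE 0.16, adjusted p = 5.32e-11; -1.16 under quantile normalization, adjusted p = 6.51e-08). Slc43a1 (LAT3), a facilitative carrier of leucine and other branched-chain amino acids in liver, ranged from 0.08 to 0.71 in sham and from -0.71 to 0.00 in PH90, with no overlap. It was 1.60-fold lower in PH90 (-0.68, SE 0.13, adjusted p = 6.56e-05). Slc43a2 (LAT4), a carrier of the same kind, went up from PH70 to PH90 (0.44, SE 0.13, adjusted p = 0.0134; 0.41 and adjusted p = 0.144 under quantile normalization) and was not called against sham.

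In the proton-coupled SLC36 family, Slc36a4 alone was called in the 7 comparisons. Its values ran from -0.21 to 0.08 in sham, -0.32 to 0.00 in PH70 and 0.16 to 0.49 in PH90, so that PH90 did not overlap with either. It was 1.23-fold higher in PH90 than in sham (0.29, SE 0.08, adjusted p = 0.00627) and 1.32-fold higher than in PH70 (0.40, SE 0.08, adjusted p = 0.000507). The first of these did not pass under quantile normalization (0.19, adjusted p = 0.106) or against unoperated rats (0.18, adjusted p = 0.0983). Slc36a1, a proton-coupled carrier of small amino acids at the lysosome, was called over the 5 groups (adjusted p = 0.0251), and against unoperated rats it was higher in PH30 (0.21, SE 0.07, adjusted p = 0.0478) and PH90 (0.23, SE 0.07, adjusted p = 0.00829).

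**Figure D4:**
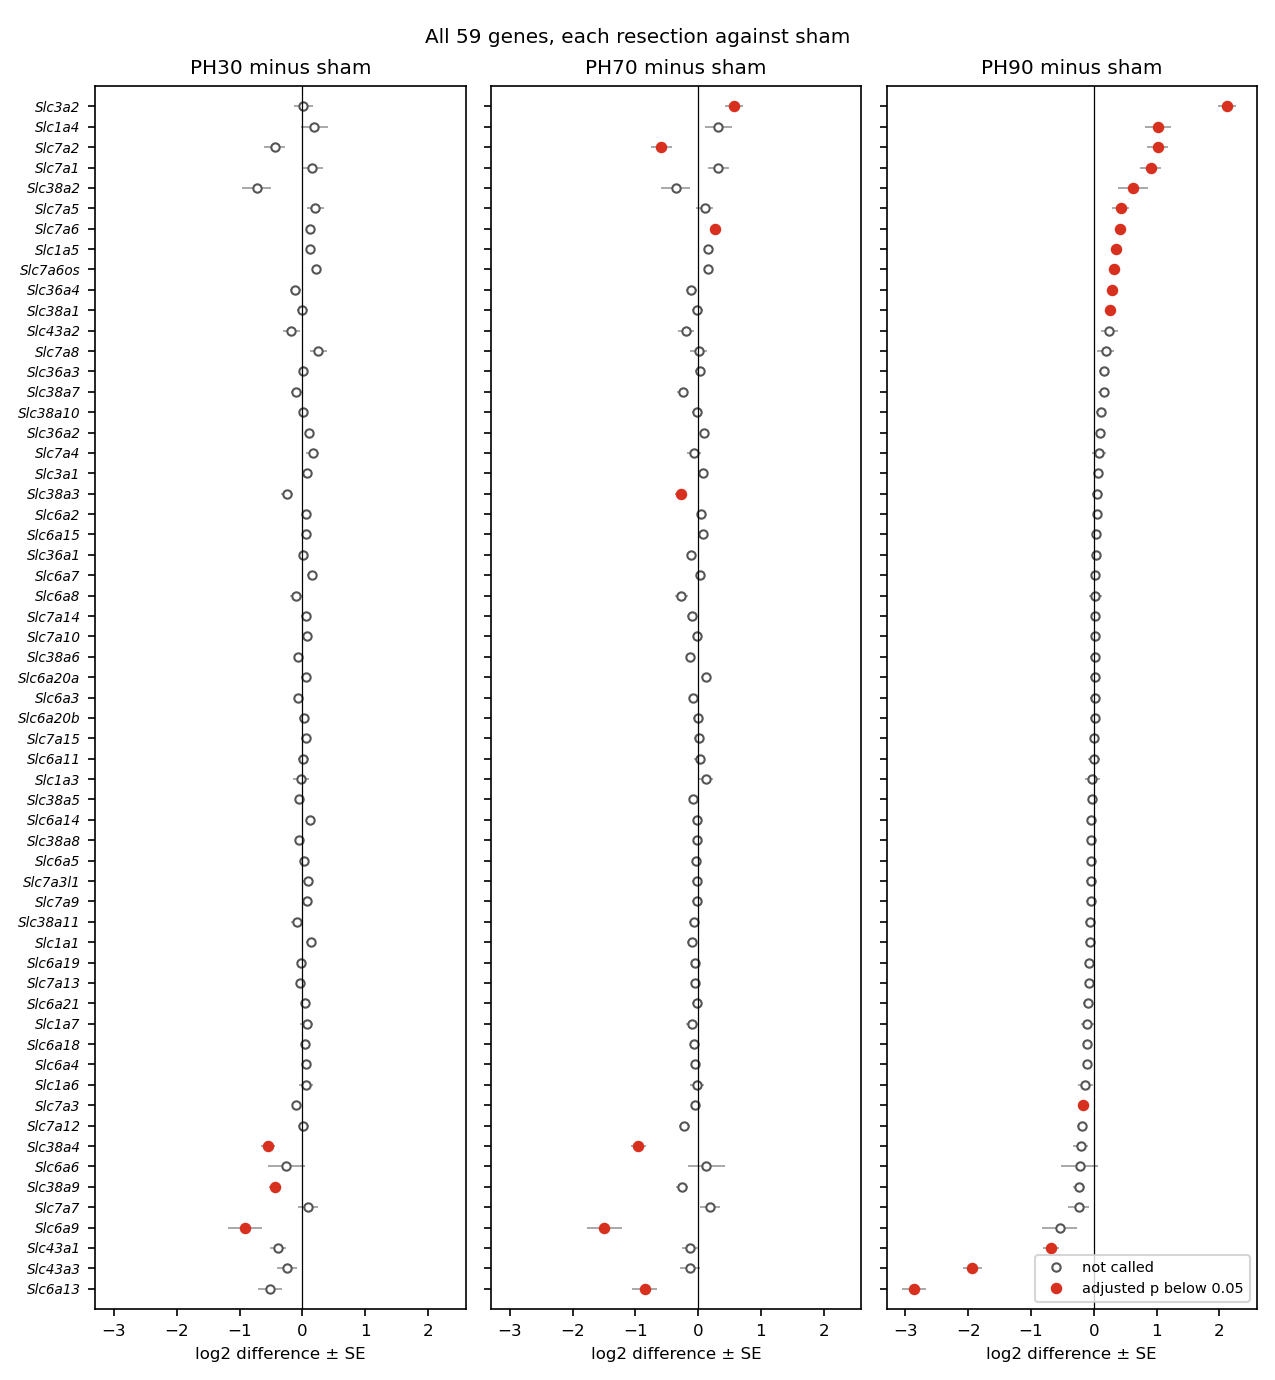
Log2 differences from the 6 sham rats, with SE, of all 59 genes in PH30, PH70 and PH90 (6 rats each); red points passed an adjusted p below 0.05 and the 3 panels share the sham rats. Of the 59 genes, 40 were called in no panel, and the differences of PH90 span -2.86 to 2.12.

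The 3 comparisons with sham share their control, and their calls fell into several patterns. Slc3a2 and Slc7a6 were called higher in PH70 and PH90, Slc6a13 lower in both, and Slc38a4 and Slc6a9 lower in PH30 and PH70 but not in PH90. Slc7a2 was lower in PH70 and higher in PH90. Slc38a9 was lower in PH30 alone and Slc38a3 in PH70 alone. Another 8 genes were called higher in PH90 alone, and 3 (Slc43a1, Slc43a3 and Slc7a3) lower in PH90 alone. Whether PH90 differed from PH70 was tested directly. Slc3a2 (1.55, adjusted p = 3.23e-09), Slc7a2, Slc38a4, Slc6a9, Slc6a13, Slc43a3 (-1.81, adjusted p = 7.3e-10) and Slc43a1 (-0.55, adjusted p = 0.0014) all passed. Slc7a6, Slc7a6os, Slc7a5 and Slc7a3 did not. Slc43a1 was not called in PH90 against PH30 (-0.30).

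Leaving out rats 95 and 139 changed the smaller comparisons most. In PH30 against sham the count went from 3 to 8 genes, beside 10.9% of all genes, with Slc38a2 (-0.83), Slc38a3 (-0.29), Slc43a1 (-0.39) and Slc6a13 (-0.45) among the lower and Slc7a6os (0.24) higher. In PH70 against PH30 it went from 1 to 4, beside 13.3% of all genes, with Slc38a4 (-0.56), Slc6a13 (-0.64) and Slc1a1 (-0.29) added as lower. All 62 calls made with all rats, over the 7 comparisons, still passed without these 2.

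The 33 genes called in none of the 7 comparisons had largest absolute log2 differences between 0.03 and 0.43, with a median of 0.12. They include the epithelial carriers Slc6a19, Slc6a18, Slc7a9 and Slc3a1, the brain carriers Slc6a5, Slc6a7 and Slc6a11, and the dopamine and noradrenaline carriers Slc6a3 and Slc6a2. The serotonin carrier Slc6a4 and the broad-range carrier Slc6a14 were called only in PH90 against PH30, at -0.17 (adjusted p = 0.0372) and -0.16 (adjusted p = 0.0286). The Slc6a4 call was lost without PH30 rat 65 or 130 or PH90 rat 61, 87, 106 or 111 (adjusted p up to 0.134), and the Slc6a14 call without PH30 rat 65 or PH90 rat 39 or 87 (up to 0.108).

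Over the 30 rats some members followed each other closely, which describes these livers only, since the rats of a group share their operation. Slc43a3 and Slc6a13 correlated at r = 0.88, Slc3a2 and Slc7a1 at 0.81, Slc1a5 and Slc7a6 at 0.82, and Slc38a4 at 0.79 with both Slc6a9 and Slc38a3. Slc3a2 and Slc6a13 ran opposite to each other (r = -0.94).

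Genes around the carriers were read from lists. Of 27 genes of the ATF4 amino acid response, 2 were higher in PH30, 4 in PH70 and 14 in PH90 against sham. Of all genes 2.2%, 10.5% and 19.9% were higher there. In PH90 3 genes of the list were lower, where 34.6% of all genes were called, and the median difference was 0.31. Mthfd2, of mitochondrial folate metabolism, rose by 1.30 (adjusted p = 1.63e-07), Psat1, of serine synthesis, by 1.0 (adjusted p = 0.00117), asparagine synthetase Asns by 0.79 (adjusted p = 0.00191) and Atf4 itself by 0.53 (adjusted p = 0.00143). Atf5 (-1.30), Cth (-1.53) and Cbs (-0.44), the latter pair making cysteine from homocysteine, fell. With 1 rat left out, 10 to 14 genes were higher in PH90, 0 to 2 in PH30 (0 without PH30 rat 98) and 2 to 6 in PH70 (2 without PH70 rat 37, 6 without rat 139). Without rats 95 and 139 together, 7 were higher in PH70 and 3 in PH30. Against unoperated rats, with all rats kept, none was higher in PH30, 1 in PH70 and 8 in PH90. In PH90 3 were then lower, beside 33.8% of all genes called, and the median difference was 0.17.

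Of 30 genes that sense amino acids for mTORC1, 10 were called in PH90, a share near the 34.6% of all genes; 8 were higher and 2 lower. Of the list, 1 gene was higher and 2 were lower in PH70 (4 higher and 3 lower without rats 95 and 139), and 1 lower in PH30. Rptor, the scaffold of mTORC1, rose by 0.53 (adjusted p = 7.93e-06) and the small GTPase Rraga by 0.46 (adjusted p = 0.00108) in PH90, while the inhibitors Sesn1 (-0.66, adjusted p = 8.44e-05) and Nprl2 (-0.47, adjusted p = 0.00317) fell. Of 15 genes of glutamine, glutamate and alanine metabolism, 6 were higher and 8 lower in PH90, again beside 34.6% of all genes. Proline oxidase Prodh (-2.85, adjusted p = 4.15e-13), ornithine aminotransferase Oat (-2.24, adjusted p = 1.99e-08) and liver glutaminase Gls2 (-1.21, adjusted p = 3.07e-06) fell, and the aspartate aminotransferase Got1 rose (1.80, adjusted p = 5.23e-08). Of 18 carriers and partners outside the families, 4 were higher and 2 lower in PH90, a share near the 34.6% of all genes. They include the mitochondrial carriers Slc25a22 for glutamate (1.04, adjusted p = 1.33e-07), Slc25a29 for basic amino acids (0.92, adjusted p = 2.5e-05) and Slc25a13 for aspartate and glutamate (-1.16, adjusted p = 2.4e-06).

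Markers of other liver cells also moved with the resections. Of 12 Kupffer cell and macrophage markers, 7 were lower and 1 higher in PH90 against sham, with Csf1r at -1.07 (adjusted p = 2.56e-07), Clec4f at -0.88 and Cd163 at 0.44; their mean ran from -0.02 to 0.25 in sham, -0.34 to 0.48 in PH30, -0.30 to 0.39 in PH70 and -0.64 to -0.09 in PH90. Of 12 hepatocyte markers, 4 were higher and 3 lower in PH90, and Alb was not called. Sinusoidal endothelial markers were lower in 3 and higher in 1 of 8 in PH90, T, NK and B cell markers lower in 4 of 13, neutrophil markers higher in 3 and lower in 1 of 11, stellate cell and fibroblast markers higher in 3 and lower in 3 of 11, and bile duct markers higher in 2 and lower in 1 of 9. Of all genes 2.2%, 10.5% and 19.9% were higher in PH30, PH70 and PH90 against sham. Proliferation markers, 9 in all, were higher in 7 in PH30, in 9 in PH70 and in 3 in PH90 against sham. Without rats 95 and 139 these counts were 9, 9 and 8, and 9 Kupffer cell and macrophage markers were lower in PH90. The mean of the proliferation markers was itself low in sham rats (-1.04, beside -0.02 in unoperated rats). Against unoperated rats, with all rats kept, 1 was higher in PH30, 9 in PH70 and 2 in PH90, beside 9.85%, 18.5% and 33.8% of all genes called. The median difference in PH90 was then -0.34. The part of these marker differences in the transporter results was not tested.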

How the data were processed

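Liver RNA of 30 rats was hybridised to Affymetrix Rat Gene 2.0 ST arrays, 1 per rat. The authors deposited log2 values of 29489 probe sets; Affymetrix Expression Console and RMA are named in the submitters' processing notes. That the scale is log2 follows from RMA and from the values (-6.04 to 5.44), and the centring was found from them: each probe set's median over the arrays is 0, and array medians lie between -0.00881 and 0.022. Probe sets were named through the platform's annotation: 18511 carry 1 symbol, 575 several and 10403 none. Probe sets of the same gene were averaged (291 genes), giving 18166 genes. No filter on dim probes was possible, because centring removes the levels. All 5 groups were fitted together in limma 3.58.1 (R 4.3.3; lmFit, contrasts, eBayes; 25 residual degrees of freedom), with p-values adjusted by Benjamini-Hochberg over all genes; the number of arrays limits the precision. Folds are 2 to the power of the absolute log2 difference. The fit was tested on simulated data. Rats are separate animals, named by their number in the labels.

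The transporter genes and all gene lists were chosen with earlier results of these data known, so the lists' counts are descriptions. Any transporter gene could be named; those called are given with values, and 13 genes were followed whatever their result. Alternatives were the 2 compared groups alone, the 2 rats left out, array weights, single probe sets, quantile normalization, array medians subtracted, robust eBayes, unoperated rats as control, and each rat left out in turn. Promoter windows came from RefSeq (GRCr8); protein sequences were not used here.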

Additional observations from a re-analysis of the deposited data

Results flagged for a closer look

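Within the 26 genes called in at least 1 comparison, 130 groups of 6 rats were searched for a rat that stands apart from its group, by the gap to the nearest rat over the range of the group (critical value 0.625). There were 16 such values, from 11 rats; chance alone gives about 1 in 20 groups. PH70 rat 139 accounts for 5 values: Slc38a2 at 0.761 (next highest -0.106), Slc38a4 at 0.128 (next -0.642), Slc38a9 at 0.13, Slc6a13 at 0.716 (next -0.49) and Slc7a2 at -0.217. In each of these genes it was the highest of the PH70 rats. PH30 rat 95 was the highest of its group in Slc38a3 at 0.0242 and in Slc43a3 at 0.572.

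In PH90, rat 106 was high in Slc38a1 at 0.704. In PH30, rat 140 was high in Slc38a4 at -0.00128, rat 65 in Slc6a14 at 0.34 and rat 99 in Slc7a1 at 0.329. In PH70, rat 37 was high in Slc6a6 at 1.1. In sham rats, rat 41 was high in Slc7a1 at 0.166 and rat 114 low in Slc7a6os at -0.508. In unoperated rats, rat 150 was high in Slc1a5 at 0.00707 and rat 145 in Slc7a6 at -0.0965.

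Slc7a2 moved in opposite directions after the 2 larger resections. Every PH70 rat lay below the sham mean and every PH90 rat above it, and PH90 exceeded PH70 by 1.60 on the log2 scale (limma, adjusted p = 2.33e-08).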

How the results depend on the processing

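Of 62 calls of a gene in a comparison, none reversed under any alternative, 44 passed in all 30 fits that leave out 1 rat, and 37 passed in all other alternatives. The number of calls lost was 15 with the 2 compared groups alone, 18 under quantile normalization, 6 with array weights and 5 of 25 with unoperated rats as control; none was lost without rats 95 and 139, with single probe sets, with array medians subtracted or with robust eBayes. Counts of called genes changed by over 1.5 times as follows. With the 2 compared groups alone they were 2 in sham against unoperated, 7 in PH30 against sham and 0 in PH70 against PH30. Without rats 95 and 139 they were 8 in PH30 against sham and 4 in PH70 against PH30. With array weights they were 7 in PH30 against sham, 13 in PH70 against sham and 4 in PH70 against PH30. Under quantile normalization they were 2 in sham against unoperated, 7 in PH30 against sham, 2 in PH70 against PH30 and 9 in PH90 against PH70. With unoperated rats as control the PH70 count was 12. Shares of all genes are given above only for the fit without rats 95 and 139 and for unoperated rats as control. The other counts, and those below with 1 rat left out, cannot be read as particular to the transporters. The cause of the changes was not tested. Leaving out 1 rat gave 0 to 1 genes in sham against unoperated, 2 to 7 in PH30 against sham (5 without PH30 rat 95, 7 without PH70 rat 139), 6 to 9 in PH70 against sham, 11 to 17 in PH90 against sham, 0 to 4 in PH70 against PH30 (4 without rat 95 or rat 139, 0 without any of the 10 other PH30 and PH70 rats), 15 to 18 in PH90 against PH70, 14 to 20 in PH90 against PH30 and 22 to 26 over the 5 groups. Quantile normalization makes the spread of all arrays equal, and the spread of the PH90 arrays was the widest. It therefore tends to shrink PH90 differences whatever made that spread wide. What made it wide was not tested. No paired analysis was possible because no rat number occurs in more than 1 group. Without levels, signal over background could not be judged.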
